A study of Mus musculus with 6 samples.

Results

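Aminoacyl-tRNA synthetases attach each amino acid to its tRNA. Of the 16671 genes in the table of fibro-adipogenic progenitors (FAPs), 37 were counted here as encoding one. They were taken by symbol: a one-letter amino acid code followed by "ars", with or without a final 1 or 2, plus Eprs, Farsa and Farsb. The rule leaves out Tarsl2, which is counted below among the synthetase relatives. Of the 37 genes, 20 encode the enzymes of the cytosol and 17, whose symbols end in 2, encode those of mitochondria. All 37 were measured in every library.

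Protein synthesis draws on charged tRNAs, and each synthetase recognises its own amino acid and the tRNAs that carry its anticodons. Mitochondria translate the few proteins of their own genome with a separate set of tRNAs, which are mostly charged by separate, nuclear-encoded enzymes. Gars and Kars make both forms from 1 gene, and no gene ending in 2 serves glycine or lysine. In mammals several cytosolic synthetases are bound with 3 scaffold proteins in a multisynthetase complex. Many cytosolic synthetase genes are targets of ATF4, a transcription factor that is made when amino acids run short or the endoplasmic reticulum is stressed.

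FAPs are the stromal cells of skeletal muscle, which give rise to its fibroblasts and fat cells. They were sorted from the hind limbs of wild-type mice aged 4 to 5 months and given C1q at 100 µg/ml (3 libraries) or its vehicle (3 libraries). C1q is the recognition protein of the classical complement pathway, and the comparison asks how FAPs respond to it. The input to each SMART-Seq library was 10 ng of RNA, an amount that needs amplification of the cDNA. The labels give neither the length of the treatment nor the number of mice, so a p-value reflects the spread between libraries, part of which may be technical.

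The deposited values are read counts per gene divided by a size factor for each library, here called normalised read counts. The libraries held 24046020 to 31929119 reads on genes with C1q and 5379209 to 38861152 in controls, where control 3 was the shallowest. Summed FAP markers, which include Pdgfra and Col1a1, were 659000 to 843000 normalised reads with C1q, against 371000 to 499000 in controls. Most of each sum came from Col1a1 and Col3a1, which were at 255000 and 331000 in C1q replicate 1. By the threshold given below, 6 of the 10 markers were called higher and none lower, beside 19.7% and 18.7% of all genes. The RNA kit text in the labels names muscle stem cells. Of 9 markers of muscle stem cells and myoblasts, Pax7 was at 1.49 to 3.52 with C1q and 0 to 7.58 in controls (1 read of control 3 is worth 4.25 units). Others were abundant in all 6 libraries: Myog was at 438 to 528 with C1q and 718 to 2360 in controls, and Des at 3050 to 4160 with C1q and 4070 to 14100 in controls. RNA of the mitochondrial genome made up 1.85 to 2.25% of the normalised total with C1q and 3.98 to 5.29% in controls. In bulk libraries, fewer cells of a type and less RNA per cell cannot be told apart.

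The promoters of the synthetase genes were searched for letters known from amino acid response and MYC target genes. Of the 37 genes, 27 have an entry in the RefSeq promoter table (GRCm38.p6, 250 bases before to 50 after the start), 13 cytosolic and 14 mitochondrial. Both strands were searched for TGATGNAA, the core of the element that ATF4 binds with C/EBP proteins. It was present in 5 of 13 cytosolic promoters (38.5%) and in 0 of 14 mitochondrial ones, against 1219 of 27025 genes in the whole table (4.51%). A stretch with a match is shown for each of the 5 genes on the strand on which the motif reads TGATGNAA, with the match in capitals.
Aars, chr8:111033840-111033869, minus strand: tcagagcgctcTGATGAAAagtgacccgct
Gars, chr6:55037960-55037989, minus strand: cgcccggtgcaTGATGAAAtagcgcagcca
Tars, chr15:11399655-11399684, plus strand: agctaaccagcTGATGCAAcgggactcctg
Yars, chr4:129189895-129189924, plus strand: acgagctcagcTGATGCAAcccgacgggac
Iars, chr13:49682126-49682155, minus strand: gcgtctggaggTGATGCAAtactgacagtg
Counted from the start site of each promoter entry, the matches shown lie at bases 10 to 17 of Aars and -30 to -23 of Gars. Those of Tars, Yars and Iars lie at -15 to -8, 4 to 11 and 8 to 15. The entries for Aars and Yars start inside the plus-strand gene spans given below, which begin at 111027778 and 129189734. Their positions are therefore not distances from the first base of the span. A match is a description of the letters and not a measured binding site.

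The E-box CACGTG, the palindrome bound by MYC and related factors, was in 4 of 13 cytosolic promoters (30.8%: Aars, Farsb, Iars and Tars) and 1 of 14 mitochondrial ones (7.14%: Ears2), against 8.09% of all promoters. In none of these windows did a match of one motif overlap a match of the other.

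The libraries of C1q-treated FAPs held less RNA of most cytosolic synthetases, while most mitochondrial synthetases showed no called change. These are bulk libraries in which several muscle-cell markers were also lower with C1q. Which cells account for the lower synthetase values was not tested. Of the 20 cytosolic genes, 15 fell, none rose and 5 passed no threshold. The threshold was a Benjamini-Hochberg adjusted p below 0.05 in limma's moderated test of log2(normalised read count + 1), adjusted over all 16671 genes. Of all genes tested, 38.3% were called by the same rule, 18.7% lower and 19.7% higher. The median log2 fold change (C1q over control) was -0.45 for the cytosolic genes, beside 0.03 for all genes tested. In 18 of the 20 cytosolic genes every C1q library lay below every control library, a pattern shown by 25.4% of all genes. With reads thinned to the depth of the shallowest library, in a single random draw, 10 of the 20 genes were called lower. That fit called 1290 of 16537 genes lower.

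The median over the 20 cytosolic genes differed between the groups in every library. This median log2 level, relative to each gene's control mean, was -0.53, -0.43 and -0.46 in the C1q libraries, against 0.07, 0.01 and -0.10 in the controls. The 20 genes summed to 37090, 40270 and 38150 normalised reads with C1q, against 57760, 55330 and 49990 in controls. No C1q library overlapped the controls on either measure.

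**Figure D1:**
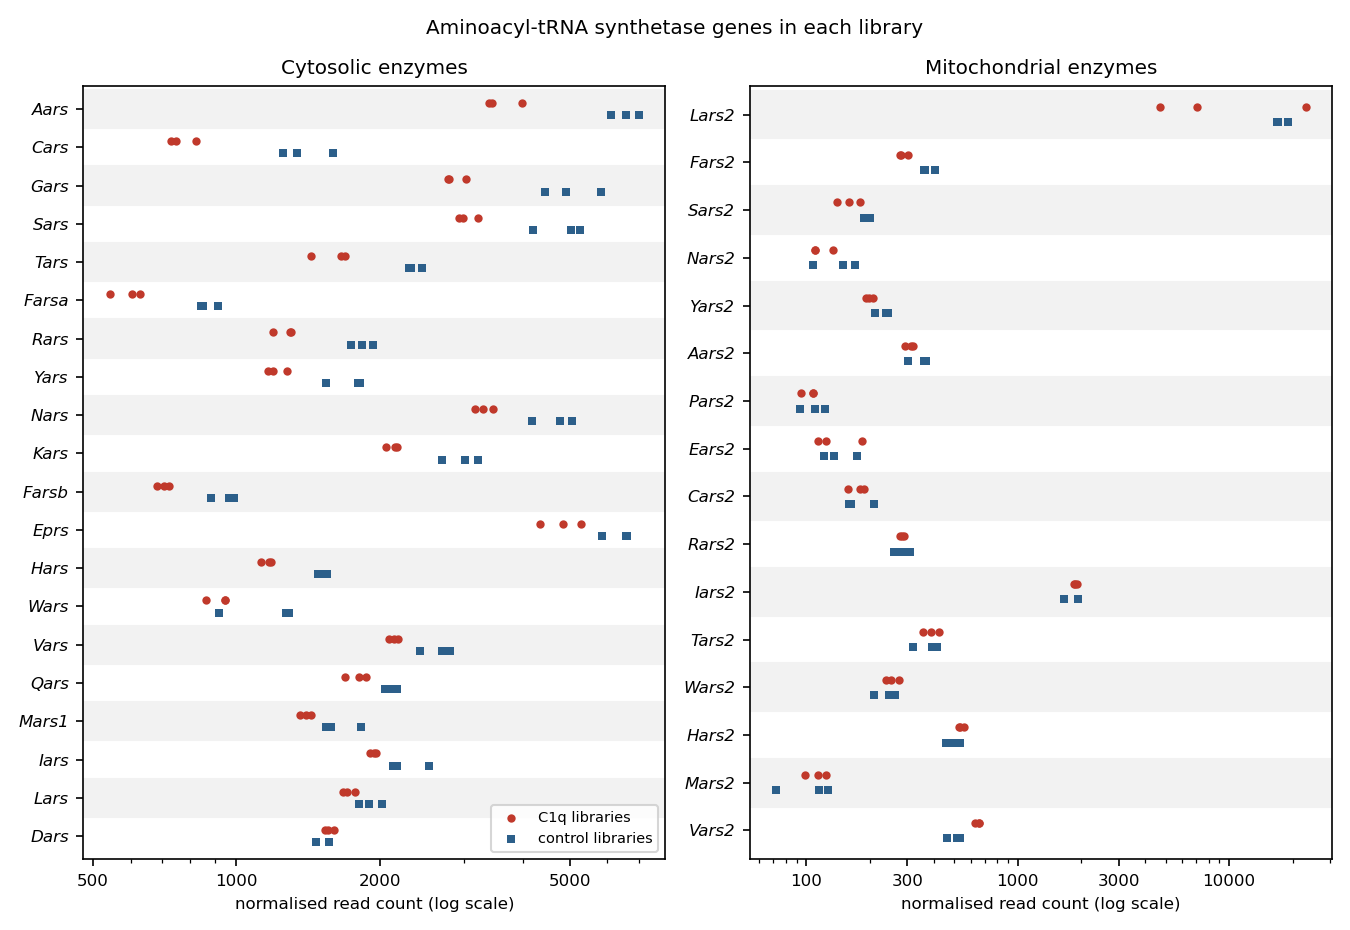
Normalised read count (log axis) of 36 synthetase genes in each of the 6 libraries, with C1q as circles and control as squares, and with cytosolic and mitochondrial genes in separate panels. In 18 of 20 cytosolic genes all C1q points lie below all control points, and in 12 of the 16 mitochondrial genes shown the groups overlap.

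Alanyl-tRNA synthetase, Aars (chr8:111027778-111055569), which also edits tRNAs wrongly charged with serine, had 3387, 3976 and 3436 normalised reads with C1q, against 6987, 6563 and 6100 in controls. The highest C1q library was well under the lowest control. It fell by 45.1%, a log2 fold change of -0.87 (SE 0.088, limma adjusted p = 4.45e-04). Cars (chr7:143557230-143600090), the cysteine enzyme, had 729, 824.5 and 747 reads with C1q, against 1598, 1340 and 1250 in controls. Its log2 fold change was -0.86 (SE 0.104, limma adjusted p = 7.88e-04). Gars (chr6:55038001-55079504), which charges glycine in both compartments, had 2773, 3033 and 2790 reads with C1q, against 5825, 4904 and 4442 in controls. It fell by 0.81 on the log2 scale (SE 0.104, limma adjusted p = 9.86e-04). In Cars and Gars the controls ran over a wider range than the C1q libraries, with control 1 the highest.

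Sars (chr3:108424864-108445259), the serine enzyme, which also provides the seryl-tRNA from which selenocysteine is made, had 2923, 3216 and 2994 reads with C1q. In controls it had 5043, 5251 and 4187 reads. The difference was -0.66 on the log2 scale (SE 0.0964, limma adjusted p = 0.00168). Tars (chr15:11383663-11399658), for threonine, had 1437, 1688 and 1654 reads with C1q, against 2455, 2327 and 2300 in controls. Its controls lay close together, and it fell by 0.57 (SE 0.0788, limma adjusted p = 0.00132). The aromatic amino acids are served by several genes: Farsa and Farsb for the subunits of the phenylalanine enzyme, Yars for tyrosine and Wars for tryptophan. Farsa (chr8:84856969-84869257), the alpha subunit, had 604, 543 and 628 reads with C1q, against 843, 852 and 914 in controls. It fell by 0.56 (SE 0.0819, limma adjusted p = 0.00172), and its partner Farsb fell by 0.43 (limma adjusted p = 0.00309). Yars (chr4:129189734-129219240) had 1165, 1275 and 1192 reads with C1q, against 1816, 1803 and 1543 in controls. It fell by 0.50 (SE 0.0835, limma adjusted p = 0.00281). No C1q library reached the lowest control in any of these genes.

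Rars (chr11:35808381-35834528), the arginine enzyme and the member of the multisynthetase complex with the largest fall, had 1194, 1302 and 1295 reads with C1q. In controls it had 1936, 1835 and 1743 reads, and it fell by 0.54 (SE 0.07, limma adjusted p = 0.00103). Also lower were Nars for asparagine (-0.50, limma adjusted p = 0.00346), Kars for lysine (-0.48, 0.0026), the joint glutamate and proline enzyme Eprs (-0.40, 0.0119) and Hars for histidine (-0.39, 0.00193). Smaller falls were those of Vars, for valine, and Qars, for glutamine. Vars (chr17:35000907-35016329) had 2140, 2178 and 2090 reads with C1q, against 2701, 2805 and 2432 in controls. Its log2 fold change was -0.31 (SE 0.0712, limma adjusted p = 0.0121), and without C1q replicate 3 the adjusted p was 0.0533. Qars (chr9:108508005-108515941) had 1807, 1870 and 1686 reads with C1q, against 2175, 2126 and 2045 in controls. Its log2 fold change was -0.24 (SE 0.0656, limma adjusted p = 0.022). The Qars call was lost without C1q replicate 1 (adjusted p = 0.0647), C1q replicate 3 (0.0952) or control replicate 1 (0.0657).

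The 5 cytosolic genes that passed no threshold were Wars, Mars1, Iars, Lars and Dars. Wars had 946, 947 and 864 reads with C1q, against 1270, 1289 and 918 in controls. Controls 1 and 2 stood above all C1q libraries, while control 3 lay among them. Its log2 fold change of -0.32 had a limma adjusted p of 0.0989, which became 0.00227 (at -0.48) without control replicate 3 and 0.0328 in the fit with the replicate block. Mars1, the methionine enzyme that serves both initiation and elongation, had a log2 fold change of -0.23 (limma adjusted p = 0.0508, and 0.0494 with the replicate block). Iars, for isoleucine, stood at -0.23 (0.0528), and Lars, the leucine enzyme that also takes part in sensing leucine for mTORC1, at -0.15 (0.115). With the length trend removed the values were -0.40 (adjusted p = 0.00799) for Iars and -0.26 (0.02) for Lars, and with the GC trend removed -0.32 (0.0155) for Iars and -0.26 (0.0168) for Lars, so that both were then called. Without control replicate 3 the adjusted p was 0.0264 for Mars1 and 0.0281 for Iars. Dars, the aspartate enzyme, was the member nearest to no difference: 1535, 1606 and 1553 reads with C1q, against 1563, 1562 and 1471 in controls. The 95% interval of its log2 fold change was -0.11 to 0.17, which does not reach the cytosolic median of -0.45.

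**Figure D2:**
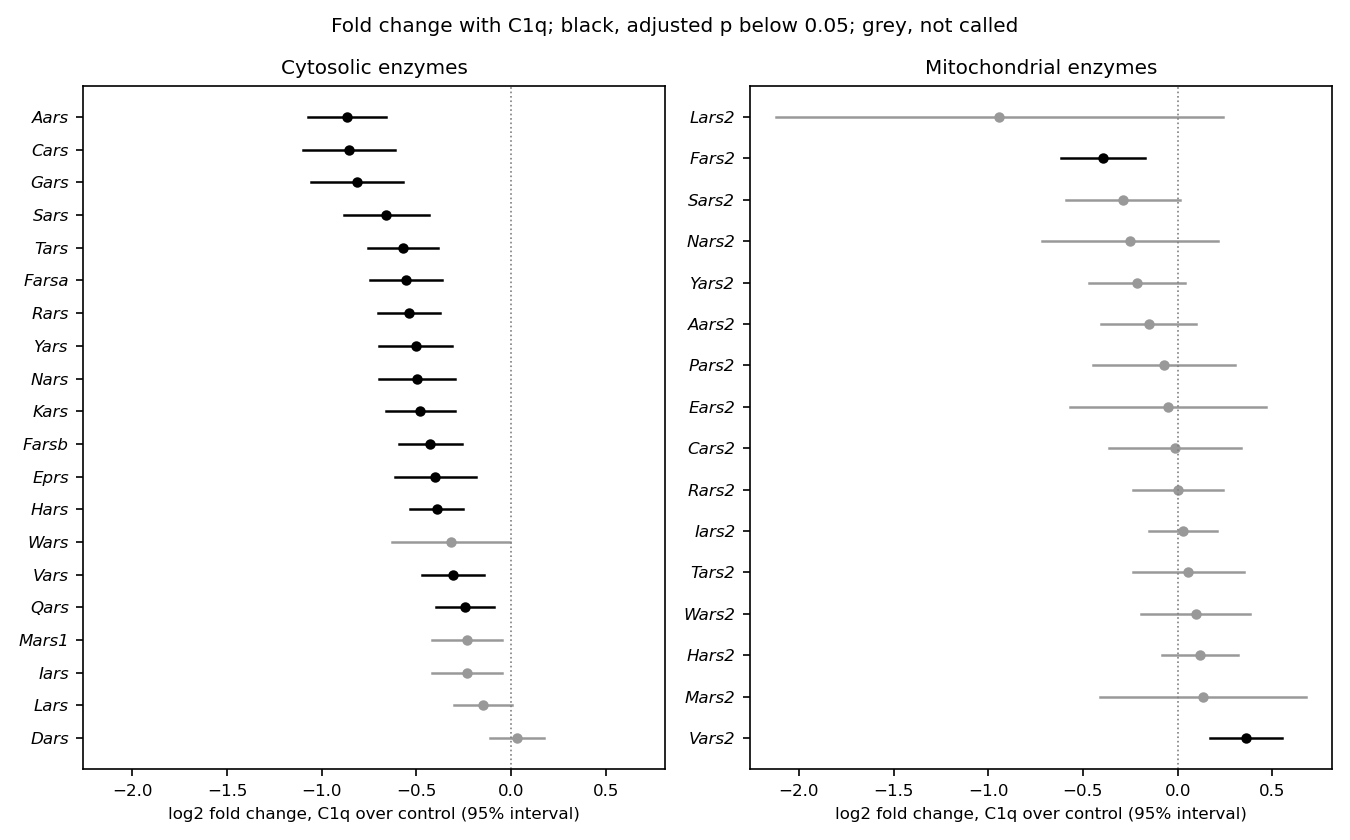
Log2 fold change (C1q over control) of 36 synthetase genes with 95% intervals from the limma fit, cytosolic and mitochondrial genes in separate panels, with genes of adjusted p below 0.05 in black and the others in grey. Cytosolic genes spread from -0.87 for Aars to 0.03 for Dars, and mitochondrial genes from -0.94 for Lars2 to 0.36 for Vars2.

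The cytosolic genes were also grouped by membership of the multisynthetase complex and by the structural class of the enzyme. Of the 8 genes of the complex (Dars, Eprs, Iars, Kars, Lars, Mars1, Qars and Rars), 4 fell and 4 passed no threshold, with a median log2 fold change of -0.24. Of the 12 genes outside it, 11 fell, with a median of -0.53, and Wars was the exception. Class I and class II enzymes have unrelated catalytic folds. Of the 9 class I genes 5 fell (median -0.31), and of the 10 class II genes 9 fell (median -0.53). Eprs holds one domain of each. Of all genes, 18.7% were called lower. The counts depend partly on the threshold, which Mars1 (limma adjusted p = 0.0508) and Iars (0.0528), class I genes of the complex, narrowly missed. Every C1q library lay below every control in 7 of the 8 complex genes and 11 of the 12 outside it. The same held for 8 of the 9 class I genes, 9 of the 10 class II genes and 25.4% of all genes. These subgroups were not tested against each other, and they overlap: 8 of the 12 genes outside the complex are class II, and 5 of the 8 inside it are class I.

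Among the 17 mitochondrial genes 1 rose, 1 fell and 15 passed no threshold, while 19.7% of all genes were called higher and 18.7% lower. Their median log2 fold change was -0.01. The groups did not overlap in 4 of them: Fars2, Sars2 and Yars2 were lower in every C1q library, and Vars2 higher. Of all genes, 25.4% were lower and 26.8% higher in this way. Without Lars2 the mitochondrial genes summed to 6080, 5988 and 5858 normalised reads with C1q, against 6075, 5648 and 5964 in controls, so that C1q libraries lay within or slightly above the control range.

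Vars2 (chr17:35655634-35667639), which charges the mitochondrial valine tRNA, was the synthetase gene that rose. It had 656, 659 and 630 reads with C1q, against 533, 519 and 463 in controls, a log2 fold change of 0.36 (SE 0.0816, limma adjusted p = 0.0107). Each C1q library was above each control, and 26.8% of all genes showed that pattern. After removal of the trend of fold change with transcript length the value was 0.19 (adjusted p = 0.112), and with thinned reads it was 0.25 and not called. Its cytosolic partner Vars is on the same chromosome and fell.

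Fars2 (chr13:36117428-36537595), the single-chain mitochondrial phenylalanine enzyme, had 278, 281 and 303 reads with C1q, against 360, 408 and 366 in controls. It fell by 0.39 (SE 0.0947, limma adjusted p = 0.0138). Its call was lost without C1q replicate 1 (adjusted p = 0.0563) or C1q replicate 2 (0.0553), and with thinned reads its log2 fold change was -0.0813 and not called. Sars2 and Yars2, whose groups were also apart, had log2 fold changes of -0.29 (limma adjusted p = 0.12) and -0.22 (0.158).

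Lars2, the mitochondrial leucine enzyme, was the most abundant mitochondrial synthetase and the least steady. It had 4727, 22970 and 7019 normalised reads with C1q, against 16790, 16960 and 18930 in controls. C1q replicates 1 and 3 were far below the controls and C1q replicate 2 was above them. The log2 fold change was -0.94 (SE 0.506, limma adjusted p = 0.183), and without C1q replicate 2 it was -1.61 (adjusted p = 0.00274). The other mitochondrial genes varied far less between libraries of a group.

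A further 11 mitochondrial genes had log2 fold changes from -0.25 to 0.13. Nars2 was at -0.25, Aars2 at -0.15, Pars2 at -0.07, Ears2 at -0.05 and Cars2 at -0.01. Rars2 was at 0.00, Iars2 at 0.03, Tars2 at 0.06 and Wars2 at 0.10. Hars2 was at 0.12 and Mars2 at 0.13. The interval of each fold change was set beside the cytosolic median, which was taken as fixed although it comes from the same libraries. The counts that follow are a description and not a test of a difference from the cytosolic set. In 11 of the 17 genes the 95% interval lay wholly above the cytosolic median of -0.45, and in 15 it included 0, with 5 intervals including both. In the shallowest library the mitochondrial genes had a median of 62 reads and the cytosolic genes 463, and the median SE was 0.123 for mitochondrial and 0.0794 for cytosolic genes. Smaller changes were therefore less detectable for the mitochondrial set.

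For amino acids with a gene of each kind, the ratio of the cytosolic to the mitochondrial value was taken within each library, as log2 of (normalised read count + 1), so that the scaling of a library largely cancels. There are 17 such ratios, with Eprs used for both glutamate and proline and the mean of Farsa and Farsb for phenylalanine. The log2 ratio was lower with C1q in 16 of the 17, with a median difference of -0.37. In 10 of them every C1q library lay below every control, and in none above. Of all single genes 25.4% lay below and 26.8% above in this way, and no share was computed for ratios of other gene pairs. The ratios reuse the gene values given above and are not independent of them. With 3 libraries against 3 the smallest two-sided exact permutation p is 0.1, which these 10 ratios reached (0.17 after Benjamini-Hochberg adjustment over 17), so no single ratio could pass 0.05.

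The largest differences were those of cysteine, leucine, alanine and valine. The log2 ratio of Cars to Cars2 was 1.96, 2.19 and 2.24 with C1q, against 3.28, 3.07 and 2.58 in controls, a difference of -0.84. That of Aars to Aars2 was 3.41, 3.67 and 3.54 with C1q, against 4.28, 4.44 and 4.04 in controls, a difference of -0.71. Vars to Vars2, the pair in which the 2 genes moved in opposite directions and both passed the test, had the tightest ratios. They were 1.70, 1.72 and 1.73 with C1q, against 2.34, 2.43 and 2.39 in controls, a difference of -0.67. Leucine went the other way: the log2 ratio of Lars to Lars2 was -1.47, -3.69 and -2.07 with C1q, against -3.06, -3.23 and -3.32 in controls. Its difference of 0.79 (exact permutation p = 0.4) followed the spread of Lars2 and ranged from 0.32 without C1q replicate 1 to 1.43 without C1q replicate 2. The other 13 differences ran from -0.63 for threonine to -0.10 for phenylalanine.

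**Figure D3:**
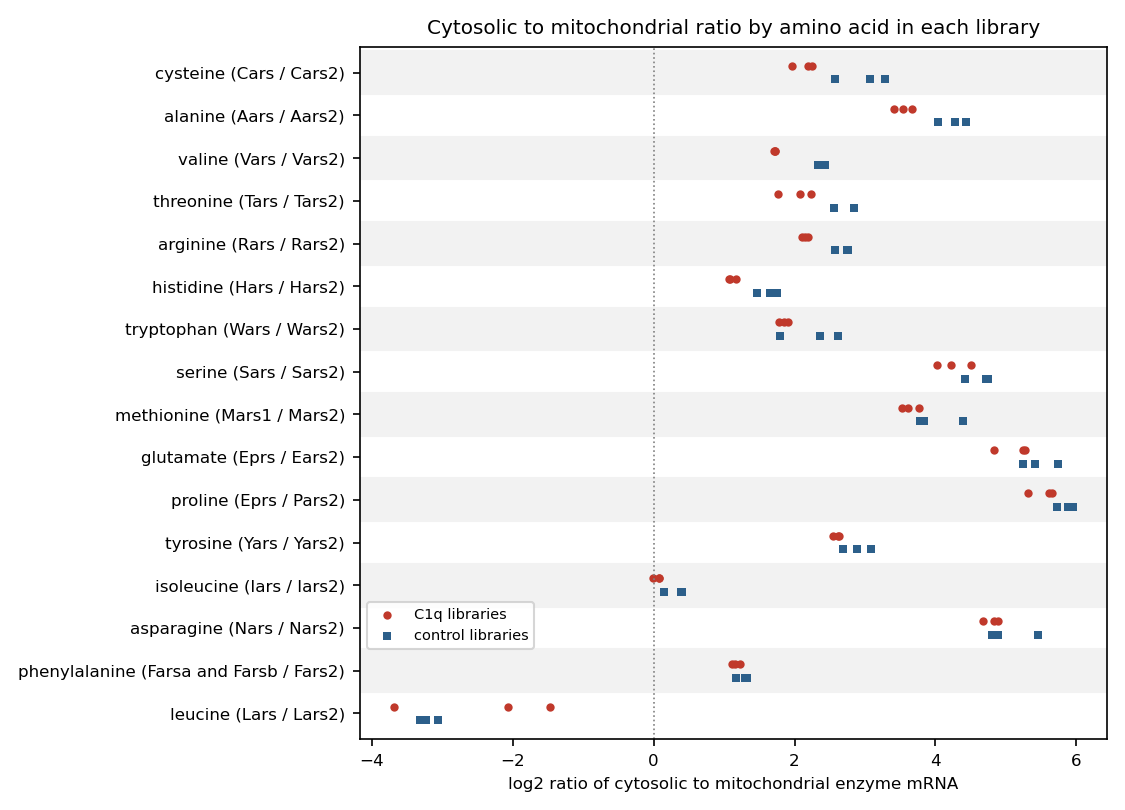
Log2 ratio of the cytosolic to the mitochondrial synthetase for 16 amino acids, one point per library, C1q as circles and control as squares, on a log2 axis. For cysteine, alanine and valine all C1q points lie below all control points, and for leucine the C1q points spread from -3.69 to -1.47.

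Per kilobase of the principal GENCODE transcript, cytosolic genes were more abundant than mitochondrial ones in both groups. The median was 549.8 normalised reads per kb with C1q and 672.0 in controls for the cytosolic genes, and 107.2 with C1q and 103.9 in controls for the mitochondrial genes. Lars2, at 2971 per kb with C1q and 4510 in controls, was above every cytosolic gene. Next among mitochondrial genes was Iars2, at 342 with C1q and 336.1 in controls, its control value being below the lowest cytosolic gene. Mars2 was the lowest, at 9.92 with C1q and 9.24 in controls, over an annotated transcript of 11294 nt. The cytosolic genes spanned 238.1 to 1204 per kb with C1q, against 433.3 to 2125 in controls.

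Among the controls, the summed muscle-cell markers and most cytosolic synthetase genes were highest in control 1 and lowest in control 3. Single markers did not all follow the sums: Vcam1 and Myh4 were highest in control 2 (4150 and 385). The mitochondrial genes without Lars2 summed lowest in control 2. Markers of muscle stem cells and myoblasts summed to 10800, 12600 and 10900 normalised reads with C1q, against 24700, 16100 and 10200 in controls, with 1 of 9 higher and 4 lower. Markers of muscle fibres summed to 12000, 19000 and 15700 with C1q, against 75900, 42300 and 19200 in controls, with 2 of 10 higher and 4 lower. Control 1 was the highest control for 13 of the 20 cytosolic synthetase genes, and control 3 the lowest for 18. Pax7 and Chodl, both stem cell markers, were at 0 in control 3, where 1 read is worth 4.25 units. Myf5, of the same list, was at 17.0 in control 3, its highest value in any library. Control 3 had summed markers of 10200 and 19200, just outside the ranges of the C1q libraries, while single markers differed in both directions. Myod1 was at 451 in control 3 and 236 to 271 with C1q, and Mylpf at 4190 and 1530 to 2400. Vcam1, in contrast, was at 3830 in control 3 and 5160 to 6530 with C1q, and Myh2 at 51.0 and 159 to 479. In control 3, 18 of the 20 cytosolic genes were above every C1q library. Without control replicate 1, which had the highest muscle marker sums, the median cytosolic log2 fold change was -0.42. Markers of other cells were lower in sum: endothelial 604 to 1300 with C1q and 655 to 1330 in controls, and macrophage or leukocyte 207 to 633 with C1q and 167 to 282 in controls. Pericyte markers summed to 4010 to 5760 with C1q and 1800 to 2490 in controls (3 of 5 higher), and Schwann cell markers to 3460 to 3730 with C1q and 2730 to 5640 in controls (2 of 5 higher). These counts of called markers are to be set against 19.7% higher and 18.7% lower among all genes. The part that muscle markers, FAP markers, the other markers or the mitochondrial RNA share play in the synthetase values was not tested.

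Exons of 6 cytosolic and 8 mitochondrial synthetase genes overlap an exon of another gene on the opposite strand, and with no strand setting given, reads there cannot be told apart. The overlap is 195 bases for Hars and Hars2, which lie head to head, and 68 bases for Mars1 and Ddit3. Ddit3, which encodes the stress factor CHOP, fell by 0.78 on the log2 scale (limma adjusted p = 0.012). It is 2034 bases for Iars2 and Rab3gap2, 465 for Vars2 and Gm20483, and 501 for Fars2 and Nrn1. On the same strand, Aars shares 1326 bases with Exosc6.

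The genes around tRNA charging were read from lists of known components. These lists, and those of the paragraphs that follow, were chosen with earlier results of these data known. Their shares are therefore a description and not a test, beside 18.7% lower and 19.7% higher among all genes. All 3 scaffold genes of the multisynthetase complex fell. Aimp2 had 342, 364.5 and 359 reads with C1q, against 542.5, 537 and 493 in controls, a log2 fold change of -0.56 (limma adjusted p = 0.00168). Eef1e1 fell by 0.75 (0.00348) and Aimp1 by 0.33 (0.0231), the Aimp1 call being lost without C1q replicate 2 or 3 or without control replicate 1 or 2 (adjusted p up to 0.0909). The scaffold genes had a median of -0.56, beside -0.24 for the synthetases they bind. Of 12 synthetase relatives and tRNA quality control genes, 7 fell and none rose. Among them, Ptrh2, which releases peptides from tRNA, fell by 0.53 (0.00312), and Dtd1, which removes D-amino acids from tRNA, fell by 0.79 (7.84e-04).

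Mitochondria lack a glutaminyl-tRNA synthetase and make the charged tRNA with an amidotransferase. Its subunit gene Gatb rose, with 480, 522 and 467 reads with C1q, against 289, 300.4 and 276 in controls (log2 fold change 0.76, limma adjusted p = 6.69e-04). The other subunit genes did not pass, with Qrsl1 at -0.35 (0.138) and Gatc at 0.16 (0.179), and 1 of the 4 genes of that list was called. Selenocysteine is made on its tRNA from serine, and 1 of 6 genes of that route rose and 1 fell. Sepsecs, the last enzyme of the route, stood at 0.75 (limma adjusted p = 0.0372) and Sephs2, which makes the selenium donor, at -0.41 (0.0137). The Sepsecs call was lost without any 1 of 5 libraries (adjusted p up to 0.119) and the Sephs2 call without C1q replicate 3 (0.0582). The elongation factor Eefsec was at -0.27 (0.0854).

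Of 21 genes that cut, ligate or extend tRNA ends, 11 fell and 1 rose. Hsd17b10, a subunit of mitochondrial RNase P, fell by 0.55 (limma adjusted p = 0.00202), and Pop7, a subunit of nuclear RNase P, fell by 0.66 (0.00355). Elac1, a tRNA 3′-end nuclease, rose by 0.60 (0.00214). Downstream of charging, 5 of 9 cytosolic elongation and release factor genes fell and none rose. Eif5a, which helps ribosomes past proline runs, fell by 0.91 (3.97e-04), Eef1b2 by 0.68 (0.00164) and Eef1g by 0.62 (0.00116), the last pair being subunits that reload the factor carrying charged tRNA. Of 10 measured mitochondrial translation factor genes 3 fell and none rose. These were Tsfm (-0.82, limma adjusted p = 5.16e-04), Gfm1 (-0.52, 0.00325) and Tufm (-0.44, 0.0053), all 3 of which act in elongation.

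**Figure D4:**
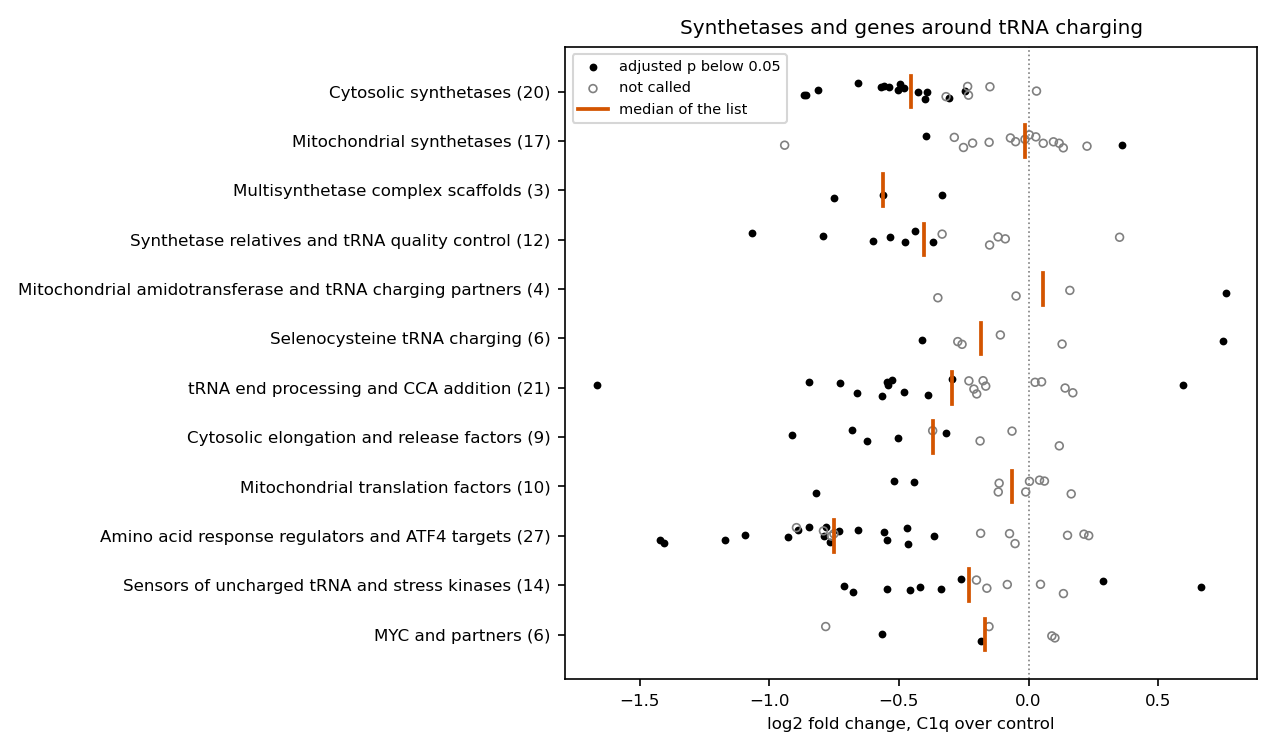
Log2 fold change (C1q over control) of each gene in the synthetase sets and in each list of related genes, with filled points for genes of adjusted p below 0.05, open points for the others and a bar for the median of each list. Medians run from -0.75 for the amino acid response list to 0.06 for the mitochondrial amidotransferase list, beside 0.03 for all genes.

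Regulators and targets of the amino acid response fell in 17 of 27 cases and rose in none, with a median log2 fold change of -0.75. Atf4 itself had 1275, 1416 and 1390 reads with C1q, against 2450, 2348 and 1994 in controls, a log2 fold change of -0.73 (limma adjusted p = 9.11e-04). Every C1q library was below every control. Cebpb, a partner of ATF4, fell by 0.93 (2.65e-04). Psat1 and Shmt2, enzymes of serine and glycine metabolism, fell by 1.09 (5.89e-04) and 0.85 (5.76e-04). The ATF4 protein is controlled mainly at translation, which these RNA values do not measure.

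Of 14 genes for the sensors of uncharged tRNA, the other eIF2 kinases and the eIF2 machinery, 7 fell and 2 rose. Eif2ak4, which encodes the kinase GCN2 that binds uncharged tRNA, is named for that role with its value known, and was at 0.13 (limma adjusted p = 0.282). Eif2b1, a subunit of the factor that recycles eIF2, fell by 0.71 (5.37e-04), and Eif2s1, the subunit that these kinases phosphorylate, fell by 0.55 (0.00179). Eif2ak2, the kinase activated by double-stranded RNA, rose by 0.67 (0.00248). Of 6 genes for MYC and its partners, 2 fell and none rose. Myc was at -0.57 (0.0331) and Max at -0.18 (0.0469), while Mnt was at 0.09 (0.283). Leaving out 1 library ended the call for Myc (3 of 6 libraries, adjusted p up to 0.0916) and for Max (each of the 6, up to 0.148).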

How the data were processed

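The 6 libraries were analysed, grouped and numbered by their sample titles. The submitters' processing notes name build mm10 and the tools HISAT2, Trimmomatic, DESeq2 and featureCounts, with no roles, and per the file headers the columns come from featureCounts. Not given in the sources used here are tool versions, the gene annotation and the strand option. The deposited values are a normalised signal, read counts divided by a size factor per library: dividing by the smallest step gave whole reads for 100% of values (tolerance 0.001 read), and 1 read was worth 0.705 to 0.975 units with C1q and 0.583 to 4.25 in controls. Control 3 is the shallowest library, so its low values have the coarsest steps. The lowest gene mean was 1.003, and no column was left unused. Replicates of a group differed by more than sampling noise (chi-square per degree of freedom 16.5 to 40.3).

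Log2(value + 1) of all 16671 genes was fitted with limma-trend (limma 3.58.1, R 4.3.3), two-sided, with Benjamini-Hochberg adjustment and a threshold of 0.05. No set was tested as a set. Intervals are 95% intervals from the fit. Fold changes on this scale understate those of low genes. Alternatives used pseudocounts of 0.5 and 5, a mean of at least 10, edgeR 4.0.16, DESeq2 1.42.0, limma-voom, the replicate number as a block, removal of a loess trend (span 0.5) on GENCODE transcript length or GC content, each library left out, and an adjusted p of 0.01. Chosen after seeing the data were the block together with each trend, and recovered reads thinned to 5379209 per library. Scripts were tested on simulated data. Same-numbered C1q and control libraries deviated together (correlations 0.123, 0.174 and 0.132, against -0.132 to 0.00485 for the others). A pairing by number comes from the data, not from the labels, and entered only the fits with the replicate block. The main fit and the test of the ratios treated the libraries as unpaired.

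Symbols came from RefSeq by Entrez ID (16077 of 16671 matched). Members and gene lists were chosen with earlier results of these data known. In the list of mitochondrial translation factors, 10 of 11 genes were matched. By rule, full values are given for the 8 largest falls and up to 4 largest rises among called members whose groups are apart, and for members whose call 1 library ends. The 3 lowest-p genes of each related list and the 4 largest ratio differences are also named. Atf4, Eif2ak4, Ddit3, Tarsl2 and single cell-type markers, and the library values of Wars, Dars and Lars2, were given outside that rule, with their values seen. A mitochondrial synthetase, a related gene and a promoter stretch are not reported here.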

Additional observations from a re-analysis of the deposited data

How the results depend on the processing

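Over 19 alternative fits the direction of 19 cytosolic genes, all but Dars, stayed negative. Of the 15 cytosolic falls, 13 passed without each library in turn and 10 in every fit; thinning alone ended those of Farsa, Rars and Farsb. The cytosolic count of falls ranged from 13 to 18 and its median from -0.50 to -0.41 as single libraries were left out, and from 10 to 18 over the other settings. With edgeR and TMM 18 cytosolic genes fell. With the replicate block 17 cytosolic genes fell, the median was -0.45, and Wars and Mars1 were the added calls; over all genes it made 6833 calls. The count of synthetases that fell (16) was 10 after thinning and 14 to 19 without single libraries. The count that rose, Vars2 alone, was 2 with limma-voom and 0 with the length trend removed (with or without the block), after thinning or at an adjusted p of 0.01, and 1 to 2 without single libraries. The mitochondrial count of falls (1) was 2 with the length trend removed, with or without the block, 0 after thinning or at 0.01, and 0 to 1 without single libraries. The mitochondrial median was -0.08 to 0.02 without single libraries, and the median ratio difference -0.39 to -0.33. Over all genes 6389 calls became 2542 after thinning, which lowers the depth of 5 libraries. Other causes were not tested. Called falls that moved by over 1.5 times with the length trend removed were Eprs (-0.70), Farsb (-0.27) and Hars (-0.23). After thinning they were Yars (-0.77), Farsa (-0.36, not called) and Fars2 (-0.0813, not called).

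Members near no difference changed sign. Dars was at -0.18 with the GC trend removed (adjusted p = 0.0442; 0.0593 with the block) and -0.0601 after thinning. Thinning also moved Aars2 to 0.23, Pars2 to 0.28 and Ears2 to 0.64, Tars2 to -0.81, Wars2 to -0.21 and Rars2 to -0.0783. Removing the length trend, with or without the block, gave Iars2 -0.26 (adjusted p = 0.0407; 0.0316 with the block), Tars2 -0.0082, Wars2 -0.0721 and Mars2 -0.48. Removing the GC trend, with or without the block, gave Cars2 0.0378, Rars2 -0.16, Iars2 -0.0815 and Mars2 -0.11. With edgeR and TMM Cars2 was at 0.0086 and Rars2 at -0.0265. With edgeR and the deposited size factors Cars2 was at 0.0189 and Rars2 at -0.0161, and with DESeq2 Cars2 was at 0.027 and Rars2 at -0.022. With limma-voom Cars2 was at 0.0598, Rars2 at -0.0485, Tars2 at -0.0296 and Mars2 at -0.0452. Without single libraries the ranges that crossed 0 were -0.17 to 0.0209 for Pars2, -0.26 to 0.0933 for Ears2, -0.0843 to 0.11 for Cars2, -0.0597 to 0.0642 for Rars2, -0.0465 to 0.0665 for Iars2, -0.0583 to 0.14 for Tars2 and -0.11 to 0.29 for Mars2. In control 3 the mitochondrial genes had 17 to 4453 reads each, with a median of 62, and depth limits what can be detected for the low ones.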
